A study of Mus musculus with 12 samples.

Results

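The acute-phase response and its cytokine receptors were described through 10 genes, chosen by symbol: Lrg1, Lbp, Saa1, Saa2, Saa3, Socs3, Osmr, Il6ra, Il6st and Stat3. All 10 were found among the 46517 gene IDs counted, and 8 of them passed the filter on low counts that left 12522 genes for testing. Saa2 and Saa3 did not pass it. Lrg1 and Lbp were chosen because of their pattern in these same samples, so their values and fold changes are given as a description, with no test. The other 8 genes were also chosen with earlier results of these data known. For them, a change was called at a Benjamini-Hochberg adjusted p under 0.05, taken over all genes tested, in edgeR's quasi-likelihood test.

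RNA was sequenced from colonic intestinal epithelial cells of C57BL/6 mice aged 7 to 9 weeks. The 4 groups held 3 samples each, described as biological replicates. They were wild-type (WT) mice left untreated, WT mice given dextran sulfate sodium (DSS) for 48 h, Nfkb2-/- (knockout, KO) mice left untreated, and KO mice given DSS for 48 h. DSS is a polysaccharide that injures the colonic epithelium, and Nfkb2 encodes p100 and p52, a subunit of the NF-kB transcription factors. The labels give Nfkb2-/- as the genotype of the mouse, not of 1 cell type, and the cells were detached from colon pieces with 30 mM EDTA rather than sorted.

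The acute-phase response is a rise of secreted defence proteins during infection or tissue injury, best known from the liver, and epithelial surfaces can make some of the same proteins. Interleukin-6, oncostatin M and related cytokines bind receptors that share the signal-transducing chain gp130, encoded by Il6st. The bound receptor activates Janus kinases, which phosphorylate the transcription factor STAT3, and STAT3 in turn induces genes that include its own feedback inhibitor Socs3. NF-kB and C/EBP factors act on many of the same acute-phase genes.

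Regulatory sequence was taken from RefSeq (GRCm38.p6) as windows of 300 bases, with 250 bases before and 50 after each gene's annotated start. A window was present for 9 of the 10 genes, and Lbp, which had none, was not searched. The STAT motif TTCNNNGAA, searched on both strands, matched 1 of these 9 windows and 8.30% of all 32851 windows. The match was that of Socs3, from position -154 to -146 relative to the RefSeq start. In the GENCODE annotation used for the counts the gene's span begins further upstream, and the match lies inside that span. The stretch around it lies on the minus strand at chr11:117969487-117969545, and is shown because Socs3 is the textbook feedback target of STAT3. Capitals mark the match.
Socs3: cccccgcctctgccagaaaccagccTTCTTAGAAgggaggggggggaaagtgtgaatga

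The C/EBP motif TTGCNNAA, also searched on both strands, matched 3 of the 9 windows, those of Saa1, Saa2 and Saa3, and 10.8% of all windows. The matches of Saa1 and Saa2 lie in the stretches printed here. A kappaB motif, searched on both strands by its usual consensus, matched none of the 9 windows and 8.46% of all windows. Saa1 and Saa2 lie head to head on chromosome 7. Their 250 upstream bases were identical at 238 of 251 aligned columns (94.8%). They are shown because these 2 near-copies had very different counts. Each stretch has 150 bases, for Saa1 at chr7:46743041-46743190 on the minus strand and for Saa2 at chr7:46751622-46751771 on the plus strand, and capitals mark the 5 bases that differ.
Saa1: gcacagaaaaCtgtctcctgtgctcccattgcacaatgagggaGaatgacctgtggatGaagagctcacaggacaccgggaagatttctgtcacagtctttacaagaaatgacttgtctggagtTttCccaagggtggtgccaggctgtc
Saa2: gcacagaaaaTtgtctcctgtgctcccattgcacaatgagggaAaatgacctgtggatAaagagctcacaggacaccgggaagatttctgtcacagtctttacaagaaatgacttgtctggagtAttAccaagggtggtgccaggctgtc

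Total counts per sample ranged from 5595909 to 8117740, so that 3 counts, taken as the floor of detection, amounted to 0.356 to 0.53 CPM (counts scaled to the size of the library). Nfkb2 was at 30.8 to 46.1 CPM in the 6 WT samples and at 11.7 to 19.6 CPM in the 6 KO samples, without overlap. Epithelial markers were abundant in every sample, but their sum over 10 genes was not constant. It was 35800 to 44900 CPM in untreated and 30500 to 32200 CPM in treated WT. In KO it was 30800 to 33700 CPM untreated and 26200 to 29100 CPM under DSS. The 5 leukocyte markers were detected in every group and summed to 10.7 to 27.5 CPM in untreated and 36.2 to 42.4 CPM in treated WT, and to 66.8 to 86.4 CPM in untreated and 101 to 136 CPM in treated KO. The sum of the 5 macrophage markers followed both treatment and genotype, at 3.77 to 6.03, 17.1 to 24.6, 12.4 to 13.2 and 37.8 to 53.4 CPM in the same order. Lyz2 alone was at 18.8 to 30.2 CPM in treated KO, and Adgre1, Cd68 and Itgam overlapped between the treated genotypes. Under DSS the T cell marker sum was higher in KO (19.8 to 36.4 against 10.4 to 14 CPM). The B and plasma cell sum was lower in treated KO (3.71 to 5.96 against 10.1 to 15.2 CPM), and the neutrophil sum overlapped. The 4 hepatocyte markers summed to 1.96 to 10.7 CPM, and Serpina1a was at 0 in every sample. By their library numbers all WT libraries came before all KO libraries, so a difference of genotype and one of library order cannot be told apart. The third untreated WT sample stood apart for several of the genes below, and results that rest on it are given without it as well.

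Lrg1 encodes leucine-rich alpha-2-glycoprotein, a secreted acute-phase protein that binds the TGF-beta co-receptor endoglin. The gene (ENSMUSG00000037095.7) lies on chromosome 17 from 56119678 to 56122001 on the minus strand of GRCm38. Its level in untreated WT was 4.37, 3.61 and 5.72 CPM in the 3 samples. Under DSS it was 314, 346 and 298 CPM. All 3 treated samples were far above all 3 untreated ones, and the treated samples were close to each other.

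In KO samples Lrg1 was at 1.62, 1.47 and 1.19 CPM untreated, from 10 to 12 counts per library. Under DSS it was at 9.55, 8.75 and 12.5 CPM. Treated and untreated KO samples did not overlap, and all 3 KO samples under DSS lay far below all 3 WT samples under DSS. In untreated mice, too, every KO sample was lower than every WT sample.

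The mean of Lrg1 under DSS was 69.9-fold the untreated mean in WT (319 ± 24.7 against 4.57 ± 1.07 CPM, SD, n = 3 each). The KO means gave 7.21-fold (10.3 ± 1.96 against 1.42 ± 0.217 CPM). These were log2 fold changes of 6.12 (SE 0.19) in WT, the 3rd highest of the 12522 genes, and of 2.85 (SE 0.23) in KO, the 19th highest. The gain in level was 314.8 CPM in WT and 8.83 CPM in KO. Untreated KO differed from untreated WT by -1.68 on the log2 scale (SE 0.25) and treated KO from treated WT by -4.95 (SE 0.18), the 5th lowest value of all genes. The DSS change was lower in KO than in WT by 3.28 (SE 0.33) on the log2 scale, a difference with no test for the reason given above. In a bulk sample, fewer cells with the transcript and less transcript per cell cannot be told apart. The leukocyte marker sum was highest in KO under DSS, where Lrg1 was low, and its part in the values of Lrg1 was not tested.

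Lbp encodes lipopolysaccharide-binding protein, which carries bacterial lipopolysaccharide to CD14. The gene (ENSMUSG00000016024.8) spans chromosome 2, plus strand, 158306493 to 158332852. In WT it was at 7.14, 4.76 and 2.01 CPM untreated and at 72.1, 77.2 and 57.2 CPM under DSS. The third untreated sample was the lowest of the 12, and the treated and untreated samples were well apart. The KO samples were at 8.35, 9.40 and 8.32 CPM untreated and at 23.0, 19.6 and 31.5 CPM under DSS. The KO samples also separated by treatment, but all 3 treated KO samples were below all 3 treated WT samples. Before treatment the order was the opposite, with all 3 KO samples above all 3 WT samples.

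The mean of Lbp under DSS was 14.9-fold the untreated mean in WT and 2.84-fold in KO. The log2 fold changes were 3.88 (SE 0.33) in WT, ranked 35th of 12522 genes, and 1.51 (SE 0.30) in KO, ranked 170th. Without the third untreated WT sample the WT value was 3.52. The log2 difference of KO from WT was 0.90 (SE 0.33) untreated, or 0.54 without that sample, and -1.48 (SE 0.29) under DSS. The gain in level was 64.2 CPM in WT and 16.0 CPM in KO. For Lrg1 and Lbp alike, the rise was present in both genotypes and larger in WT, but the untreated levels differed in opposite directions.

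**Figure D1:**
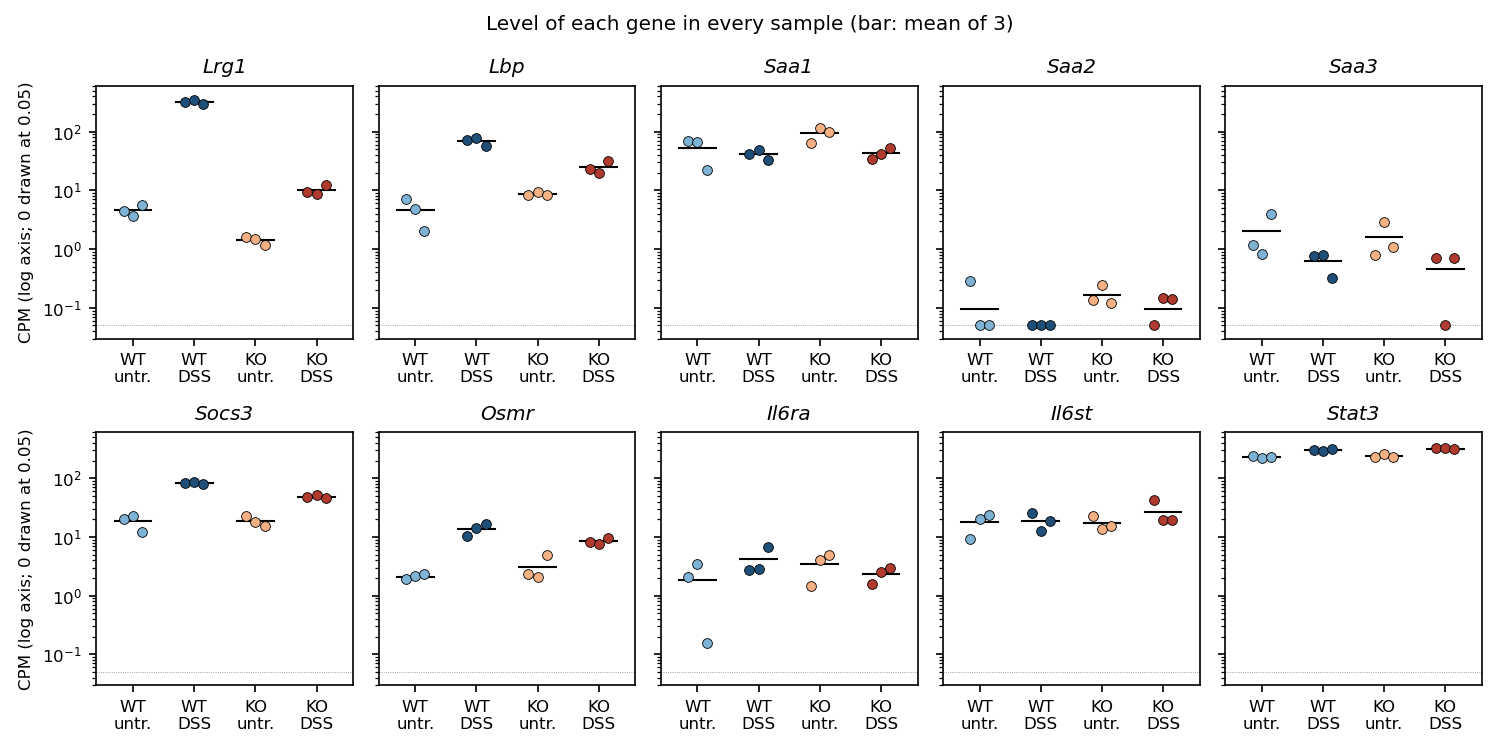
Level of each of the 10 genes in every sample, in CPM on a log axis; points are samples, bars are means of 3, and samples with 0 counts are drawn at 0.05. The 3 WT samples under DSS stand highest for Lrg1 (298 to 346 CPM), Lbp, Socs3 and Osmr, whereas Saa1 shows no rise and Saa2 stays under 0.3 CPM.

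Serum amyloid A proteins are small apolipoproteins, and in the liver Saa1 and Saa2 are among the most strongly induced acute-phase genes. Saa1 (ENSMUSG00000074115.3, chromosome 7, 46740497 to 46742980, minus strand) did not rise under DSS. Its level was 69.7, 67.9 and 22.3 CPM in untreated WT, and 41.6, 48.9 and 33.1 CPM in treated WT. The groups overlapped, because the third untreated sample was the lowest of the 6; the other 2 untreated samples were above all 3 treated ones. In KO, Saa1 was at 64.8, 114.7 and 100.1 CPM untreated and at 34.3, 41.7 and 52.8 CPM under DSS, and all treated samples were lower.

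The log2 fold change of Saa1 was -0.37 (SE 0.34, adjusted p 0.681 by edgeR) in WT and -1.12 (SE 0.34, adjusted p 0.0908 by edgeR) in KO. Without the third untreated WT sample the WT value was -0.74 (edgeR adjusted p 0.0912), and without the first or the second it was -0.13 or -0.16. The KO value passed the threshold with the DESeq2 Wald test (adjusted p 0.0197), without the filter on low counts (edgeR adjusted p 2.58e-07) and with only the 2 KO groups in the fit (edgeR adjusted p 0.0226). The KO counts of Saa1 were the same in each fit, and the main fit gave an unadjusted edgeR p of 0.00522. The far smaller value without the filter thus came with the fit settings, not with further samples. Between genotypes, Saa1 differed by 0.81 untreated (SE 0.34, adjusted p 0.251 by edgeR) and by 0.06 under DSS (SE 0.34, adjusted p 0.965 by edgeR). The untreated difference passed only when no filter was used (edgeR adjusted p 0.000847, against an unadjusted edgeR p of 0.0305 in the main fit). Without the third untreated WT sample this difference was 0.44.

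Saa2 (ENSMUSG00000057465.4, chromosome 7, 46751790 to 46754313, plus strand) had 0 to 2 counts in every sample and 0 in all 3 WT samples under DSS, at or below the floor of detection. Its near-copy Saa1 had 144 to 940 counts per sample. Over all their annotated transcripts, the 2 genes share about 30% of their 50-base words (31.1% of those of Saa1 and 30.0% of those of Saa2). Reads of these stretches cannot be assigned to one of them. The share within the main spliced transcript alone was not measured and may be larger. The large difference in counts therefore rests on the remaining bases.

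Saa3 (ENSMUSG00000040026.7, chromosome 7, 46711998 to 46715700, minus strand), the serum amyloid A gene most often found outside the liver, was also low. In WT it had 8, 5 and 26 counts untreated and 5, 6 and 2 under DSS. In KO it had 6, 24 and 9 counts untreated and 4, 0 and 5 under DSS. By CPM every treated sample was below every untreated sample of its genotype, at levels of 0 to 0.80 CPM against 0.81 to 4.02 CPM. No increase of serum amyloid A transcripts was thus detectable at this depth in either genotype.

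Socs3 encodes the suppressor of cytokine signalling that binds gp130 and the attached kinases and ends the signal. The gene (ENSMUSG00000053113.3) lies on chromosome 11 from 117966079 to 117970047 on the minus strand, and the STAT match before its RefSeq start is shown above. In WT it was at 19.8, 23.1 and 12.1 CPM untreated and at 84.3, 86.9 and 78.9 CPM under DSS. Levels in KO were 22.4, 18.1 and 15.3 CPM untreated and 47.7, 51.0 and 45.6 CPM under DSS. The untreated genotypes overlapped, the treated samples of each genotype were all above the untreated ones, and under DSS all 3 KO samples were below all 3 WT samples.

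Socs3 rose under DSS by a log2 fold change of 2.19 (SE 0.21, adjusted p 1.24e-05 by edgeR) in WT and of 1.37 (SE 0.21, adjusted p 0.00179 by edgeR) in KO. It did not differ by the test between untreated genotypes (0.02, SE 0.21, 95% interval -0.44 to 0.48, edgeR adjusted p 0.983). Under DSS it was lower in KO by 0.79 on the log2 scale (SE 0.20, adjusted p 0.0483 by edgeR). That call was lost when any 1 of the 6 DSS samples was left out (edgeR adjusted p 0.116 to 0.159). The DSS change itself was lower in KO by 0.81 (SE 0.29), which did not pass (edgeR adjusted p 0.286, unadjusted p 0.015).

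Osmr encodes the oncostatin M receptor chain that pairs with gp130. The gene (ENSMUSG00000022146.11) lies on chromosome 15 from 6813577 to 6874969 on the minus strand. WT samples were at 1.90, 2.13 and 2.32 CPM untreated and at 10.5, 14.4 and 16.3 CPM under DSS. KO samples were at 2.29, 2.08 and 4.99 CPM untreated and at 8.31, 7.56 and 9.42 CPM under DSS. Treated samples were above untreated ones in both genotypes, and the treated KO samples were below the treated WT samples.

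Osmr rose by a log2 fold change of 2.69 (SE 0.38, adjusted p 0.000364 by edgeR) in WT and of 1.43 (SE 0.36, adjusted p 0.0374 by edgeR) in KO. The call in KO was lost without untreated KO sample 1 or 2, without any one of the 3 treated KO samples (edgeR adjusted p 0.0795 to 0.167 over these 5 fits) and with only the KO groups in the fit (0.0867). The genotypes differed by 0.56 untreated (SE 0.39, adjusted p 0.568 by edgeR) and by -0.70 under DSS (SE 0.34, adjusted p 0.357 by edgeR). The DSS change was lower in KO by 1.26 (SE 0.51), which did not pass (edgeR adjusted p 0.367). Without the third untreated KO sample, the highest of the untreated ones, the untreated difference was 0.05 and the interaction -0.75.

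Il6ra, the ligand-binding chain for interleukin-6 (ENSMUSG00000027947.10, chromosome 3, 89864059 to 89913196, minus strand), was low and variable. WT samples were at 2.04, 3.45 and 0.155 CPM untreated and at 2.73, 2.80 and 6.85 CPM under DSS. KO samples were at 1.48, 4.03 and 4.99 CPM untreated and at 1.59, 2.52 and 2.91 CPM under DSS. All 4 groups overlapped. No contrast passed, with log2 fold changes of 1.13 (95% interval -0.43 to 2.68) in WT and -0.57 (-2.09 to 0.95) in KO, so the data did not settle a direction in either genotype. Without the third untreated WT sample the WT value was 0.58. The antisense gene Gm42809 overlaps its exons, and with unstranded libraries reads of the 2 cannot be told apart.

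Il6st, the gene of gp130 itself (ENSMUSG00000021756.11, chromosome 13, 112464070 to 112510086, plus strand), ranged from 9.33 to 41.7 CPM. WT levels were 9.33, 20.0 and 23.6 CPM untreated and 25.5, 12.5 and 18.9 CPM under DSS. For KO they were 23.0, 13.7 and 15.6 CPM untreated and 41.7, 19.6 and 19.5 CPM under DSS. The groups overlapped throughout, and the first KO sample under DSS was the highest of the 12. The change under DSS was 0.10 on the log2 scale (95% interval -0.72 to 0.93, edgeR adjusted p 0.946) in WT and 0.63 (-0.19 to 1.44, edgeR adjusted p 0.471) in KO. Without the first KO sample under DSS the KO value was 0.17.

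Stat3 (ENSMUSG00000004040.15, chromosome 11, 100885098 to 100939540, minus strand) varied little. In WT it was at 239, 218 and 229 CPM untreated and at 300.2, 289 and 312 CPM under DSS. KO levels were 229, 260.2 and 228 CPM untreated and 323, 321 and 308 CPM under DSS. Treated samples were above untreated ones in both genotypes and the genotypes overlapped. The log2 fold change was 0.39 (SE 0.09, adjusted p 0.016 by edgeR) in WT and 0.41 (SE 0.09, adjusted p 0.019 by edgeR) in KO, and the 2 changes differed by 0.02 (95% interval -0.26 to 0.29).

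The call of Stat3 in WT was lost without untreated WT sample 2 or treated WT sample 1 or 3 and with only the WT groups in the fit (edgeR adjusted p 0.0638 to 0.0806). For KO it was lost without 5 of the 6 KO samples in turn, all but the second untreated one, and with no filter on low counts (edgeR adjusted p 0.0504 to 0.108). Stat3 shares exonic sequence with its neighbour Stat5a on the opposite strand, and unstranded reads there could belong to either.

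Divided by exonic length, the order of the levels in WT under DSS was Lrg1 at 227 CPM per kb, Stat3 at 31.5, Socs3 at 28.8, Saa1 at 16.6, Lbp at 14.3, Il6st at 1.71, Osmr at 1.13 and Il6ra at 0.478, with Saa3 at 0.241 and Saa2 at 0. Exonic length was the union of all annotated exons of a gene. For Saa1 it was 2478 bases in 2 blocks, nearly the whole span of the gene. The order could differ with the length of a single spliced transcript, which was not used. Neighbours in this order overlapped within their spread for Saa1 (SD 3.20) and Lbp (SD 2.15), and for Il6st (SD 0.585) and Osmr (SD 0.245). By SD, Il6ra (SD 0.273) and Saa3 (SD 0.101) overlapped as well, although their samples did not. In untreated WT, Stat3 (24.02 ± 1.10 CPM per kb) and Saa1 (21.5 ± 10.9) led, and Lrg1 was at 3.24 ± 0.758. The receptor chains were thus the least abundant of the tested genes per length under DSS. Their low counts limit what can be said of them.

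**Figure D2:**
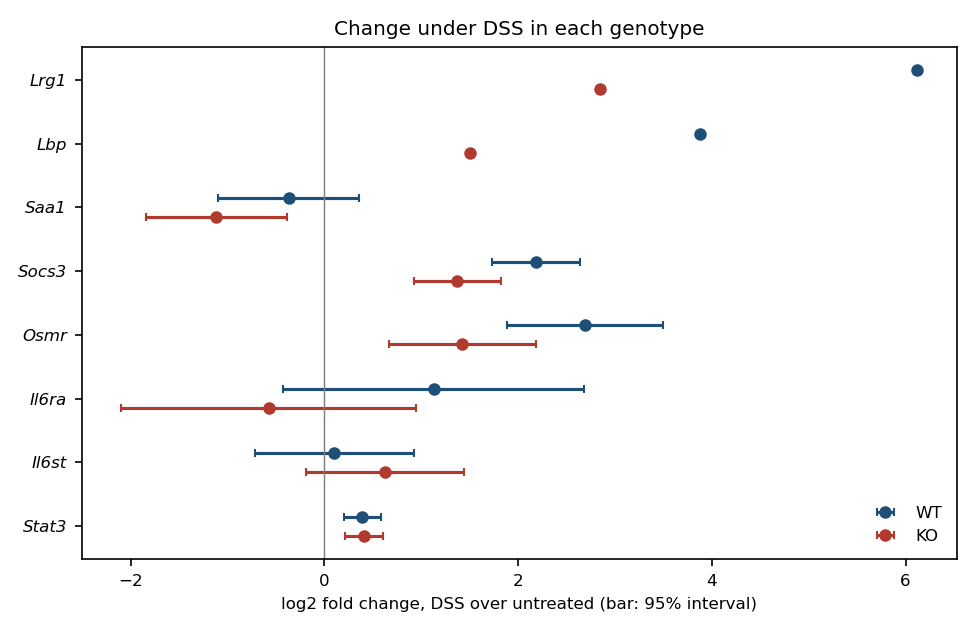
Log2 fold change under DSS against untreated for the 8 genes that passed the filter on low counts, in WT (blue) and KO (red); bars are 95% intervals from the edgeR fit, drawn for the 6 genes that were tested. Lrg1 and Lbp, chosen for this pattern, have the highest values in WT (6.12 and 3.88), Socs3 and Osmr follow the same order with smaller values, and Stat3 has nearly the same small change in both (0.39 and 0.41).

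Of the 8 genes other than Lrg1 and Lbp, 6 could be tested. The members were chosen with earlier results of these data known, so their counts beside the shares are a description, not an enrichment test. Under DSS in WT, 3 of the 6 rose (Socs3, Osmr and Stat3) and none fell, where 6.30% of all genes tested changed (2.80% higher, 3.50% lower). Under DSS in KO the same 3 genes rose, where 3.92% of all genes changed (1.88% higher, 2.04% lower), and DESeq2 called 4, with Saa1 as the fourth, lower under DSS. Between untreated genotypes none of the 6 differed by edgeR, where 3.48% of all genes did (1.72% higher, 1.76% lower). For that comparison 1 of the 6 (Saa1) had an unadjusted p under 0.05 and DESeq2 called none. Under DSS, 1 of the 6 (Socs3) was lower in KO, where 3.11% of all genes differed (1.77% higher, 1.34% lower). No change under DSS differed between genotypes by edgeR, where 1.70% of all genes did (1.17% higher, 0.527% lower). In this interaction 2 of the 6 (Socs3 and Osmr) had an unadjusted p under 0.05 and DESeq2 called none.

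**Figure D3:**
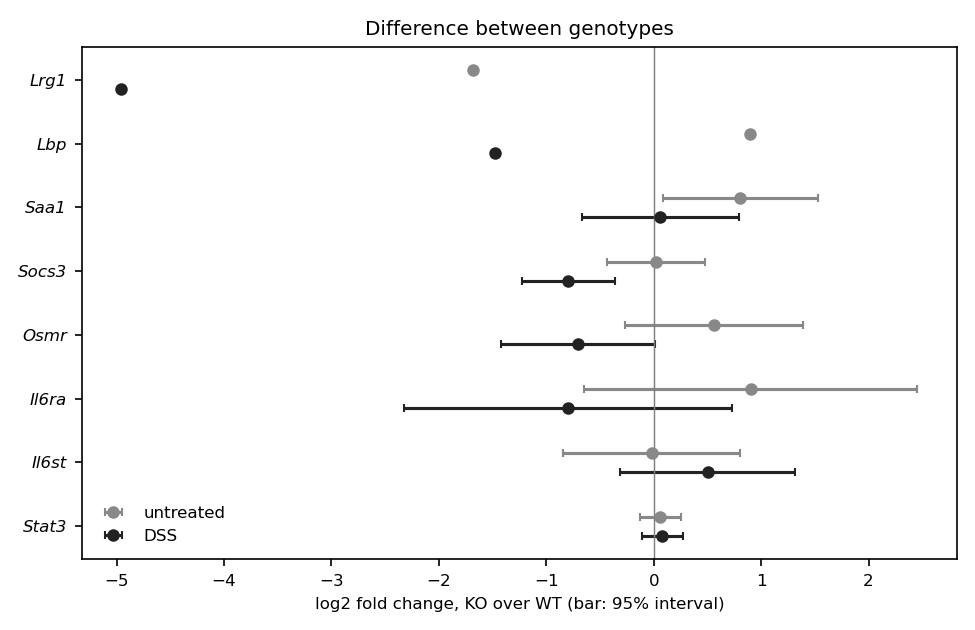
Log2 difference of KO from WT in untreated (grey) and DSS-treated (black) samples for the 8 genes that passed the filter on low counts; bars are 95% intervals from the edgeR fit, drawn for the 6 genes that were tested and not for Lrg1 and Lbp, which were chosen for their pattern. Of the 6, Socs3 under DSS (-0.79) is the one that passed the adjusted threshold.

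The other genes of the pathway were taken from lists of ligands, receptor chains, signalling proteins, known STAT3 targets, plasma proteins and lipopolysaccharide receptors. These lists were chosen with earlier results of these data known, so counts set beside the share over all genes are a description. Of the 13 ligands that act through gp130 or otherwise activate STAT3, only Lif and Ctf1 had counts high enough to be tested. Il6 had at most 6 counts in a sample and Il22 had 0 in all 12. Osm, the ligand of the receptor whose Osmr chain rose, had 1 to 2 counts in untreated and 2 to 3 in treated WT samples, and 0 to 11 in untreated and 4 to 28 in treated KO samples. Lif, which signals through gp130 and Lifr, was at 7.26 ± 2.41 CPM in untreated and 12.9 ± 1.11 CPM in treated WT samples (SD, n = 3), a log2 fold change of 0.83 that did not pass (edgeR adjusted p 0.185). Neither gene passed by edgeR or DESeq2 in any contrast, although Lif had an unadjusted p under 0.05 in WT under DSS and in the genotype comparison under DSS.

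Of the 11 further receptor chains 7 were tested. None passed by edgeR under DSS in either genotype (unadjusted p under 0.05 for 2 in WT and 1 in KO; DESeq2 called 0 and 1), between untreated genotypes (2 unadjusted, 0 by DESeq2) or in the interaction (0 unadjusted, 0 by DESeq2). Over all genes tested, edgeR called 6.30% in WT and 3.92% in KO under DSS, 3.48% between untreated genotypes and 1.70% in the interaction. The median of the 7 log2 changes under DSS was 0.61 for WT and 0.36 for KO, against 0.01 and 0.02 over all genes tested. Under DSS, where 1.77% of all genes tested were higher in KO, 1 of the 7 receptor genes was. This was Il27ra, a gp130 partner chain found mostly on lymphocytes, with 18 to 47 counts in the 3 KO samples and 0 to 5 in the 3 WT samples (edgeR adjusted p 0.0402), and the call was lost in 6 of 11 alternative fits. The summed leukocyte markers were higher in the same KO samples, and their part in this difference was not tested.

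Among 20 kinases, STATs and inhibitors, all of them tested, 2 rose and 1 fell under DSS in WT, where 2.80% of all genes rose and 3.50% fell. The median log2 fold change was 0.07, against 0.01 over all genes. Socs1, an inhibitor of Janus kinases, rose from 5.65 ± 2.87 to 18.0 ± 2.06 CPM (log2 fold change 1.67, SE 0.34, adjusted p 0.00785 by edgeR). Jak3, the kinase of common gamma chain receptors, rose by 1.10 (edgeR adjusted p 0.00369), and Socs2, an inhibitor best known from growth hormone signalling, fell by 0.93 (edgeR adjusted p 0.0163). The call of Socs2 was lost in 4 of 11 alternative fits.

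In KO 3 of the 20 rose under DSS and none fell, where 1.88% of all genes rose and 2.04% fell, with a median of 0.21 against 0.02 over all genes. Socs1 rose to a similar level as in WT (15.5 ± 3.13 CPM, log2 fold change 1.52, edgeR adjusted p 0.0212). Stat2, a factor of the interferon response, rose by 0.94 (edgeR adjusted p 6.99e-05). Stat2 went from 128 ± 11.5 to 246 ± 9.12 CPM in KO and was at 177 ± 4.07 and 171 ± 6.71 CPM in WT, so that it was lower in KO before treatment (-0.47, edgeR adjusted p 0.0143) and higher after it (0.52, edgeR adjusted p 0.00723). The interaction of Stat2 passed (0.99, SE 0.14, adjusted p 0.00094 by edgeR), the only one of the 20 to do so by edgeR, where 1.70% of all genes did. That call held in all 16 alternative fits, whereas the call of Stat2 between untreated genotypes was lost in 3 of 11 and that of Socs1 in KO in 4 of 11.

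**Figure D4:**
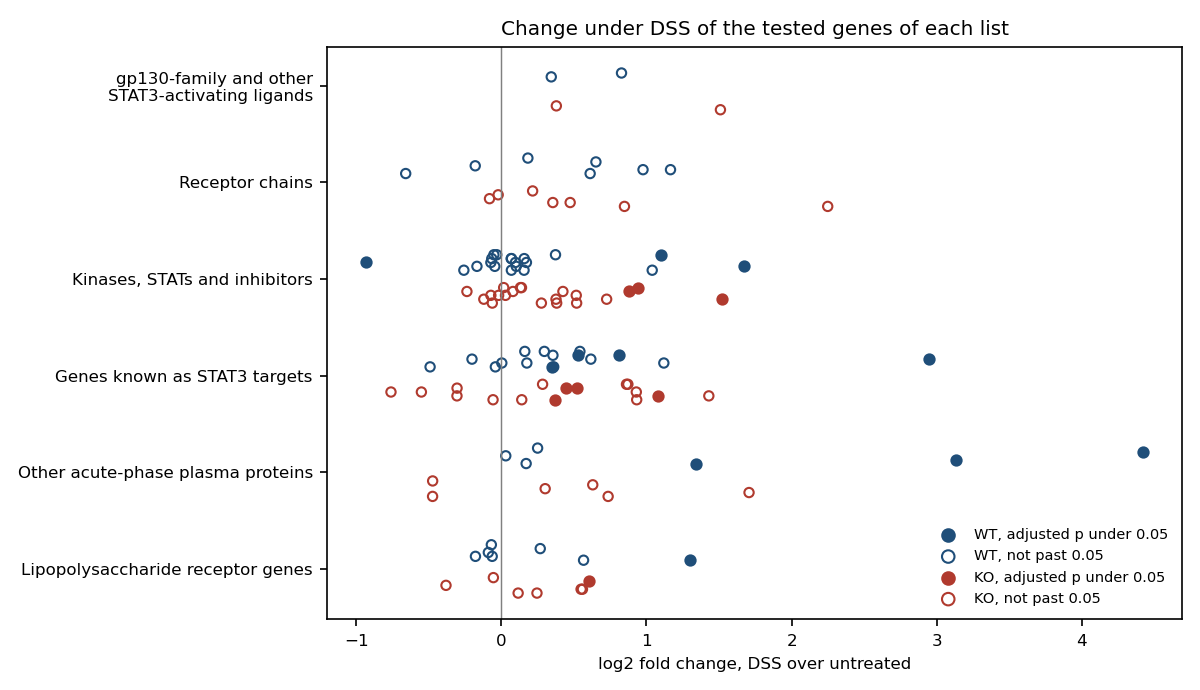
Log2 fold change under DSS of each tested gene of the 6 lists, in WT (blue) and KO (red); filled points passed an edgeR adjusted p of 0.05. Filled points are few in each list, and the value furthest to the right, Lcn2 in WT, comes from a gene with 0 to 1 counts in each untreated WT sample, so its size is not a bound.

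Of 20 genes known as STAT3 targets 16 were tested, and 4 rose and none fell under DSS in each genotype. Of all genes, 2.80% rose and 3.50% fell in WT, and 1.88% rose and 2.04% fell in KO. DESeq2 called 4 in WT and 7 in KO. The median log2 fold change was 0.35 in WT and 0.41 in KO, against 0.01 and 0.02 over all genes. The 4 that rose in WT by edgeR were Junb, Fos, Ccnd1 and Icam1. Junb and Fos encode subunits of the transcription factor AP-1 and rose in KO as well. Junb rose by a log2 fold change of 0.81 in WT (edgeR adjusted p 1.23e-05) and 0.45 in KO (edgeR adjusted p 0.00477), and Fos by 0.35 and 0.37 (edgeR adjusted p 0.00767 and 0.00939). The other 2 in KO were Bcl3, an atypical IkB protein (1.08, edgeR adjusted p 0.0166), and Pim3, a survival kinase (0.53, edgeR adjusted p 0.0474). The call of Pim3 was lost with the replicate number as a block (edgeR adjusted p 0.0763), and those of Bcl3 and Pim3 were lost in 5 and 6 of 11 alternative fits.

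Icam1, an adhesion molecule that binds leukocyte integrins, was at 1.88 ± 0.878 CPM in untreated and 14.5 ± 3.32 CPM in treated WT samples (log2 fold change 2.95, SE 0.34, adjusted p 5.78e-05 by edgeR). KO samples were already at 11.9 ± 0.204 CPM untreated, higher than in untreated WT (2.67, SE 0.34, adjusted p 0.000348 by edgeR), and at 22.7 ± 4.03 CPM under DSS. The leukocyte marker sum was also higher in untreated KO than in untreated WT, and its part in the level of Icam1 was not tested. The change under DSS was smaller in KO (-2.02, SE 0.44, adjusted p 0.0273 by edgeR), a call lost in 9 of 16 alternative fits.

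Ccnd1, which encodes cyclin D1 of the G1 phase, was at 110.4 ± 9.55 CPM in untreated and 159 ± 6.85 CPM in treated WT samples (log2 fold change 0.53, edgeR adjusted p 0.0128). The KO means were 77.4 ± 5.79 and 62.7 ± 6.84 CPM, a change of -0.30 that did not pass (edgeR adjusted p 0.21). It was lower in KO untreated (-0.51, edgeR adjusted p 0.0272) and under DSS (-1.34, SE 0.12, adjusted p 1.49e-05 by edgeR), and the changes under DSS differed (-0.83, SE 0.17, adjusted p 0.0156 by edgeR). The WT call of Ccnd1 was lost without untreated WT sample 1 or treated WT sample 1 (edgeR adjusted p 0.0539 and 0.0716). The call between untreated genotypes was lost without any 1 of the 3 untreated KO samples, without untreated WT sample 2 and with only the untreated groups in the fit (edgeR adjusted p 0.0528 to 0.138). The interaction was lost without untreated KO sample 2 or treated WT sample 1 (0.0567 and 0.0644).

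Between genotypes, 2 of the 16 targets were higher and 3 lower in KO in untreated mice, and again 2 higher and 3 lower under DSS, where 3.48% and 3.11% of all genes differed. DESeq2 called 5 and 6. The 2 higher in untreated KO were Icam1 and Junb (0.38, edgeR adjusted p 0.0154, lost in 3 of 11 alternative fits). Under DSS they were Bcl3 (1.02, edgeR adjusted p 0.0277, lost in 5 of 11) and Pim3 (0.59, edgeR adjusted p 0.0331, lost in 6 of 11). Reg3b, a secreted antibacterial lectin, was lower in KO in both states. It was at 75.6 to 374 CPM in untreated WT and 9.56 to 14.9 CPM in untreated KO (log2 difference -3.88, SE 0.52, adjusted p 0.000566 by edgeR). Under DSS it was at 175 to 240.0 CPM in WT and 19.3 to 26.1 CPM in KO (-3.17, SE 0.50, adjusted p 0.00264 by edgeR). Neither pair of groups overlapped. Without the third untreated WT sample the untreated difference of Reg3b was -2.70.

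Of 26 other acute-phase plasma proteins 6 had counts high enough to be tested, and 3 rose under DSS in WT, where 2.80% of all genes rose and the median of the 6 was 0.80. C3, the central complement protein, went from 49.6 ± 13.2 to 126 ± 20.8 CPM (log2 fold change 1.35, SE 0.20, adjusted p 0.00058 by edgeR). C4b, a further complement protein with a close copy in the mouse genome, had 0 to 16 counts untreated and 44 to 76 under DSS (edgeR adjusted p 0.0124, lost in 1 of 11 alternative fits). Lcn2, which encodes the iron-scavenging lipocalin 2, had 0 to 1 counts untreated and 11 to 21 under DSS (edgeR adjusted p 0.0403), a call lost in 7 of 11 alternative fits.

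In KO none of the 6 passed by edgeR under DSS, where 3.92% of all genes did and the median of the 6 was 0.47. By unadjusted p 2 were under 0.05, and DESeq2 called 1. C3 under DSS was lower in KO than in WT (68.0 ± 13.0 against 126 ± 20.8 CPM, log2 difference -0.89, edgeR adjusted p 0.0238), a call lost in 5 of 11 alternative fits. None of the 6 passed in the interaction by edgeR or DESeq2, with 2 under an unadjusted p of 0.05. By edgeR 1.70% of all genes tested passed it. Ttr, which encodes a plasma carrier of thyroid hormone, at 2.01 to 2.95 CPM in untreated WT, was at 6.73 to 10.1 CPM in untreated KO (1.78, edgeR adjusted p 0.0154), a call lost in 3 of 11 alternative fits.

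Of 8 lipopolysaccharide receptor genes 7 were tested. By edgeR 1 of the 7 passed under DSS in each genotype, 1 between untreated genotypes, 1 in the interaction and 0 between treated genotypes. Over all genes tested the shares were 6.30% in WT and 3.92% in KO under DSS, 3.48% between untreated genotypes, 1.70% in the interaction and 3.11% between treated genotypes. Cd14, the surface receptor to which Lbp hands lipopolysaccharide, went from 71.5 ± 6.97 to 176 ± 11.2 CPM under DSS in WT (log2 fold change 1.30, SE 0.11, adjusted p 2.49e-06 by edgeR). Untreated KO samples were at 115 ± 4.75 CPM, above untreated WT (0.68, SE 0.11, adjusted p 0.00216 by edgeR), and treated KO samples at 136 ± 2.68 CPM. The change of Cd14 under DSS was lower in KO by 1.05 (SE 0.15, adjusted p 0.00119 by edgeR), and this call held in all 16 alternative fits. Cd14 is also a monocyte gene. The 5 macrophage markers together reached at most 53.4 CPM in a sample, and their sum was highest in KO under DSS, where Cd14 was below its level in WT under DSS. The part of macrophages in the level of Cd14 was not tested. In KO under DSS 1 gene of the list passed, Myd88, the adaptor of Toll-like receptors (0.61, edgeR adjusted p 0.0118), a call lost in 3 of 11 alternative fits.

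Genes with a pattern like that of Lrg1 or Lbp were ranked by Pearson's r of log2 CPM over the 12 samples, as a description, since all points share the same libraries and groups. The 5 nearest to Lrg1 were Duoxa2 (r = 0.985), the maturation factor of the epithelial oxidase Duox2, Nfkbiz (0.982), an atypical IkB protein, the growth factor gene Hbegf (0.975), the transmembrane mucin Muc1 (0.966) and Clca4b (0.962). Mean levels of Muc1 were 11.5 CPM in untreated and 99.8 CPM in treated WT, and 9.08 CPM in untreated and 13.8 CPM in treated KO. All 5 had the highest mean in WT under DSS and the lowest in untreated KO. This follows largely from ranking them by r with Lrg1 and is no separate result.

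The 5 nearest to Lbp were Trim46 (r = 0.965), Slpi (0.961), a secreted protease inhibitor, Golm1 (0.960), Cd14 (0.943) and Aldh1l1 (0.940). Their mean was highest in WT under DSS and lowest in untreated WT, with the KO groups between, which again follows largely from the ranking. Slpi, for example, was at 1.07 CPM in untreated and 9.30 CPM in treated WT, and at 1.84 CPM in untreated and 5.57 CPM in treated KO.

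**Figure D5:**
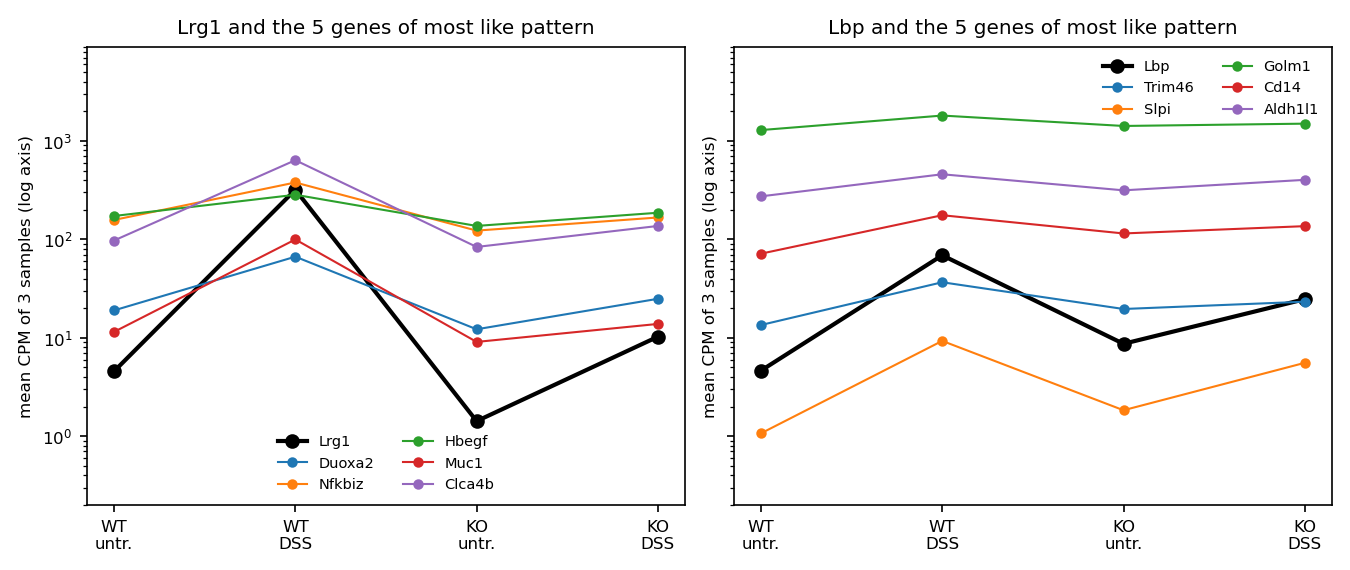
Mean CPM of 3 samples per group, on a log axis, for Lrg1 (left) and Lbp (right), each with the 5 genes whose log2 CPM correlated best with it over the 12 samples. On the left the lowest point of every line is untreated KO, on the right it is untreated WT, and on both sides the highest is WT under DSS. The likeness of the lines follows largely from how the genes were ranked.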

How the data were processed

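The authors deposited 1 raw count per gene and sample, as whole numbers with no normalization seen in the values. Reads were processed with STAR 2.5.2b and featureCounts 1.5.0 on GRCm38 (mm10), per the submitters' processing notes. The annotation and strand setting are not given in the sources used here. Per the labels' protocols, about 90% of the isolated cells were CD45.2-negative and EpCAM-positive, RNA integrity numbers were 7.2 to 9.2 (median 8.8), and SMART-seq2 libraries, which carry neither strand nor molecular identifiers, were made from 2 ng of RNA. P-values measure the spread between these samples, and floors cover counting error only.

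Gene symbols and coordinates came from GENCODE M21 by ID without version (46005 IDs matched, 512 did not). Genes kept by filterByExpr (12522, with 99.8% of counts) were scaled by TMM and tested in edgeR 4.0.16 (R 4.3.3) with 1 coefficient per group over all 12 samples, by two-sided quasi-likelihood F tests, and the common biological coefficient of variation was 0.227. The interaction is the DSS change in KO minus that in WT. CPM uses TMM-scaled totals, and log2 CPM a prior count of 2. Pairs of replicates differed by a chi-square of 6.51 to 27.0 per degree of freedom, more than counting error alone, so none was a second count of 1 library. This cannot tell repeated libraries of 1 mouse from separate mice.

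The members and the lists were chosen with earlier results of these data known. The text names every member and, in each list and contrast, up to 4 genes with the smallest p among those passing, except for 1 result not reported here. The 5 nearest genes to Lrg1 and Lbp needed a mean log2 CPM of at least 1. Alternatives were DESeq2 1.42.0 (Wald test or size factors), no filter, only the groups compared, the replicate number of the titles as a block, and leaving out each sample. Deviations of same-numbered samples from their group means correlated weakly in the 3 pairs of the KO treatment comparison (r = 0.204, 0.106 and 0.127). In the WT treatment comparison r was 0.0138, 0.12 and 0.128. The main fit did not treat the numbers as pairs. No spike-in scaling was made.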

Additional observations from a re-analysis of the deposited data

Results flagged for a closer look

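For 4 genes of the pathway lists the change under DSS differed between genotypes by the edgeR interaction test, which 1.70% of all genes tested passed. They were 2 of the 16 tested STAT3 targets, 1 of the 20 kinases, STATs and inhibitors and 1 of the 7 tested lipopolysaccharide receptor genes. The DSS change in KO minus that in WT, on the log2 scale, was -0.83 for Ccnd1, -2.02 for Icam1, 0.99 for Stat2 and -1.05 for Cd14. None of the 6 tested members passed this test.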

How the results depend on the processing

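Over 30 results of the 6 tested members (without Lrg1 and Lbp) and 360 alternatives, no called value changed direction. The threshold status stayed in 334, a call was lost in 22 and gained in 4, for Socs3, Osmr, Stat3 and Saa1 as given above. The counts of genes called depended more on the settings. Without a filter on low counts they were 776 for DSS against untreated in KO, 703 for KO against WT untreated, 642 for KO against WT under DSS and 356 for the interaction of DSS and genotype. With the DESeq2 Wald test they were 800, 790, 661 and 360 in the same order. With only the groups compared, DSS against untreated in WT gave 467 and KO against WT untreated gave 195, and this fit was not run for the interaction, which needs all groups. Leaving out 1 sample gave 483 to 958 for DSS against untreated in WT, 235 to 302 in KO, 212 to 725 for KO against WT untreated, 160 to 231 under DSS and 152 to 350 for the interaction. The highest value of the untreated comparison (725) and of the interaction (350) came without the third untreated WT sample. Where this left 2 samples in a group, they were assumed to vary like the other groups. With the replicate block the counts were 695, 409, 345, 290 and 186 for the 5 comparisons, and no member's call changed. That block gave each number 1 effect shared by both genotypes, so it did not test pairs within 1 genotype. Same-numbered samples correlated at 0.0138 to 0.128 in WT treatment, -0.175 to -0.0535 untreated and -0.117 to -0.0103 under DSS. Of 37 results for named list genes, 20 lost their call without some 1 sample, 6 with the replicate block (edgeR adjusted p 0.0632 for Lcn2 in WT, 0.0763 and 0.0612 for Pim3 in KO and under DSS, 0.055 for C3 and 0.0821 for Il27ra under DSS, and 0.0507 for the interaction of Icam1) and 5 with only the groups compared. None reversed. The causes were not tested. Low counts limit Saa2, Saa3, Il6ra and the ligands most.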
